A study of Mus musculus with 4 samples.

Results

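Single-nucleus RNA sequencing of pituitary glands was examined for 5 genes of the estrogen response: the receptors Esr1 and Esr2, and the estrogen-responsive genes Greb1, Pgr and Nrip1. The members were chosen by gene symbol, and all 5 of them were found among the 32285 genes of the count tables. UM-HET3 mice are a genetically heterogeneous wild-type stock, and each library was made from the pooled nuclei of 3 snap-frozen glands. The 4 libraries were labelled as males of 22 months, females of 22 months, males of 5 months and females of 5 months, with 1 library per label, and the labels name no treatment and no engineered allele. Since a library is 1 pool, no p-value measures the spread between mice. The edgeR p-values compare 4 pools and rest mainly on spread shared across genes, because few degrees of freedom are left for each gene.

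Estrogens act through 2 nuclear receptors, ERα from Esr1 and ERβ from Esr2, which bind DNA as dimers when loaded with hormone. Their best known DNA target is the estrogen response element, an inverted repeat of the half-site GGTCA with a spacer. Greb1 encodes a chromatin-bound cofactor of ERα, and its transcript is a classical readout of estrogen action. Pgr encodes the progesterone receptor, which estrogen induces in many tissues, and Nrip1 encodes RIP140, a corepressor that binds ligand-loaded receptors and is itself induced by estrogen in human breast cancer cells. In the pituitary, estrogen raises prolactin synthesis in lactotropes and modulates gonadotropin release from gonadotropes.

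The labels of 2 libraries went against their sex-chromosome transcripts. Xist, the noncoding RNA of the silenced X chromosome, was counted in 97.3% and 85.8% of nuclei in the male and female libraries labelled 22-month, against 0.112% and 0.212% in the male and female libraries labelled 5-month. At least 1 of 4 Y-linked genes was counted in 0.203% and 0.304% against 85.6% and 84.3% of nuclei in the same order. The comparison of labelled ages therefore sets 2 libraries that carry Xist against 2 that carry Y-linked transcripts, and labelled age and sex chromosomes cannot be told apart in any value of that comparison. The libraries labelled 22-month males and 5-month females are those that went against their labels. Transcripts of sex chromosomes do not show whether the age labels of these 2 libraries are right, and this was not tested. Groups were kept as labelled, and male and female below are words of the labels only. The male and female libraries labelled 22-month held 10355 and 7235 nuclei after filtering, against 7156 and 6597, with medians of 4141 and 4745 against 3460 and 3643 unique transcript counts (UMIs) per nucleus, and pairs of libraries shared 14 to 43 barcodes.

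Nuclei were grouped by marker genes into 11 classes that held at least 30 nuclei in every library, and the 5 members and the hormone genes were left out of the genes used to cluster. All defining markers of a class were counted in every library, except 1 of 8 in somatotrope-like nuclei of 3 libraries. Levels are given as UMIs per 1000000 UMIs of the class in a library (CPM). Over all nuclei, 102909 UMIs of Esr1, 216 of Esr2, 25209 of Greb1, 8043 of Pgr and 20014 of Nrip1 were counted.

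Esr1 (ENSMUSG00000019768, mm10 chromosome 10, 4611593 to 5005614, plus strand) was highest in gonadotrope-like nuclei, with 1825 and 1686 CPM in the male and female libraries labelled 22-month, against 1241 and 1069 CPM in the male and female libraries labelled 5-month. Lactotrope-like nuclei followed with 881 and 1093 CPM against 913 and 959 CPM. Nuclei of the growth hormone class, somatotrope-like, had 502 and 828 CPM against 374 and 639 CPM. Gonadotrope-like nuclei stood above lactotrope-like nuclei in each of the 4 libraries, although the ranges of these classes over libraries overlapped, and the range of lactotrope-like nuclei did not overlap that of somatotrope-like nuclei. Thyrotrope-like nuclei had 496 and 738 CPM against 349 and 308 CPM, with a range that overlapped that of somatotrope-like nuclei. The other 7 classes had medians over libraries between 35.9 CPM in pituicyte-like and 267 CPM in macrophage-like nuclei, and each of them overlapped its neighbour in this order.

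Esr2 (ENSMUSG00000021055, chromosome 12, 76120419 to 76177259, minus strand) was sparse in all classes. Corticotrope-like nuclei held 8 and 5 UMIs in the male and female libraries labelled 22-month, against 29 and 6 UMIs in the male and female libraries labelled 5-month. The intermediate-lobe nuclei, melanotrope-like, held 19 and 6 UMIs against 36 and 13 UMIs, which is 3.96 and 2.97 CPM against 22.9 and 6.74 CPM. The library labelled 5-month males was the highest in both of these classes. Lactotrope-like nuclei, which hold the most nuclei, had 4 and 2 UMIs against 0 and 1 UMIs of Esr2, and no UMI was counted in macrophage-like or endothelial-like nuclei of any library. A count of 0 in macrophage-like nuclei allows up to 14.99 and 8.33 CPM in the male and female libraries labelled 22-month and up to 17.2 and 16.3 CPM in the male and female libraries labelled 5-month, so that absence there was not shown at this depth.

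Greb1 (ENSMUSG00000036523, chromosome 12, 16670615 to 16800886, minus strand) was highest, by the median over libraries, in lactotrope-like nuclei. Somatotrope-like, pituicyte-like (the glia of the posterior lobe), gonadotrope-like and thyrotrope-like nuclei followed in this order. Corticotrope-like and melanotrope-like nuclei, with medians of 16.1 and 9.84 CPM, lay below macrophage-like nuclei with 36.3 CPM. Lactotrope-like nuclei had 261 and 358 CPM in the male and female libraries labelled 22-month, against 107 and 136 CPM in the male and female libraries labelled 5-month. Somatotrope-like nuclei had 224 and 335 CPM against 25.6 and 81.8 CPM. In these classes every library labelled 22-month stood above every library labelled 5-month. Pituicyte-like nuclei had 153 and 144 CPM against 165 and 103 CPM, and there the labelled ages overlapped. Gonadotrope-like nuclei had 190 and 269 CPM against 30.1 and 21.5 CPM, and thyrotrope-like nuclei 110 and 236 CPM against 9.52 and 9.84 CPM, again without overlap.

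Pgr (ENSMUSG00000031870, chromosome 9, 8899833 to 8968611, plus strand) was highest in gonadotrope-like nuclei, with 220 and 477 CPM in the male and female libraries labelled 22-month, against 59.4 and 63.8 CPM in the male and female libraries labelled 5-month. Gonadotrope-like nuclei stood above the lactotrope-like nuclei, the next class by the median over libraries, in each library. Lactotrope-like nuclei had 80.1 and 126 CPM against 24.2 and 23.2 CPM. The labelled ages did not overlap in either class. In the other 9 classes the medians over libraries were between 2.15 CPM in pituicyte-like and 37.5 CPM in thyrotrope-like nuclei. Melanotrope-like nuclei had 31.0 and 68.3 CPM against 36.2 and 37.9 CPM, and so lay above lactotrope-like nuclei in both libraries labelled 5-month. Thyrotrope-like nuclei lay above lactotrope-like nuclei only in the library labelled 5-month females, with 36.9 CPM.

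Nrip1 (ENSMUSG00000048490, chromosome 16, 76287400 to 76373827, minus strand) was the most evenly spread of the members over classes, with medians over libraries between 78.7 CPM in somatotrope-like and 260.2 CPM in endothelial-like nuclei. Every class overlapped its neighbour in the order of Nrip1 levels. Gonadotrope-like nuclei had 321 and 336 CPM in the male and female libraries labelled 22-month, against 169 and 153 CPM in the male and female libraries labelled 5-month. Lactotrope-like nuclei had 158 and 229 CPM against 75.0 and 88.4 CPM, and the labelled ages did not overlap in either class.

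**Figure D1:**
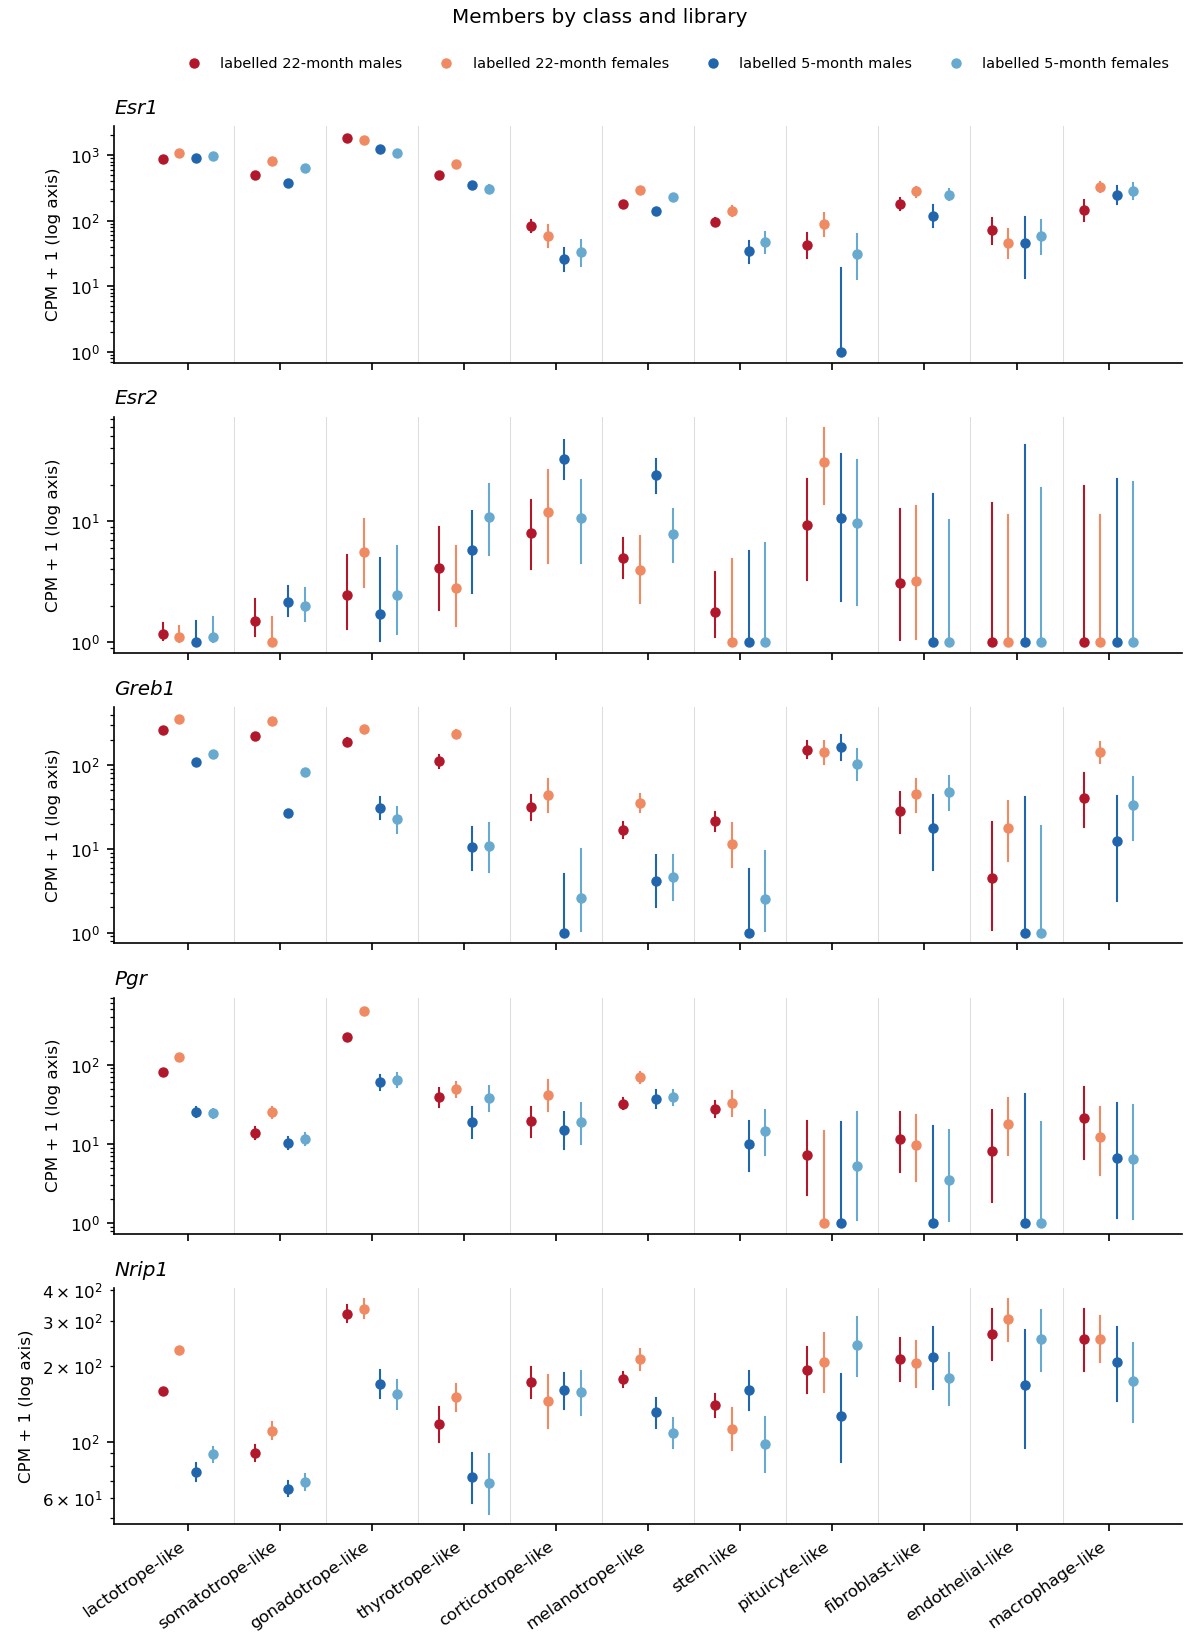
Level of each member (CPM + 1, log axis) in 11 classes and 4 libraries, 1 point per library with its exact 95% Poisson interval, which covers counting error only. Greb1 and Pgr of lactotrope-like and gonadotrope-like nuclei lie higher in both libraries labelled 22-month, while Esr1 of lactotrope-like nuclei lies between 881 and 1093 CPM in all 4 libraries.

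The sequences upstream of Greb1, Nrip1 and Pgr are shown because these 3 members were higher together in lactotrope-like and gonadotrope-like nuclei of the libraries labelled 22-month. They are the 250 bases before the annotated start (RefSeq, GRCm38.p6), 5′ to 3′ on the strand of the gene. They lie at chr12:16800887-16801136 on the minus strand for the first start of Greb1, at chr16:76373828-76374077 on the minus strand for the first start of Nrip1, and at chr9:8899583-8899832 on the plus strand for Pgr. Capitals mark the half-site GGTCA, or TGACC where it lies on the opposite strand.
Greb1: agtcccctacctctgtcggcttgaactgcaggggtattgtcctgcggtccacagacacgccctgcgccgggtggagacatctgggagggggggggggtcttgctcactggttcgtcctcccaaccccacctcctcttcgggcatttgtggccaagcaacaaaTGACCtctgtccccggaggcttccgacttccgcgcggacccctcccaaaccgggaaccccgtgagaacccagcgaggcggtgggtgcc
Nrip1: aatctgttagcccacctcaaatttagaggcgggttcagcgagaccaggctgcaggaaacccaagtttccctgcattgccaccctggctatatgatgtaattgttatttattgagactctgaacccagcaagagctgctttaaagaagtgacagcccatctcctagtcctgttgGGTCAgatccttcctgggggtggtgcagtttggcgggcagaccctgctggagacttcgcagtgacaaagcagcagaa
Pgr: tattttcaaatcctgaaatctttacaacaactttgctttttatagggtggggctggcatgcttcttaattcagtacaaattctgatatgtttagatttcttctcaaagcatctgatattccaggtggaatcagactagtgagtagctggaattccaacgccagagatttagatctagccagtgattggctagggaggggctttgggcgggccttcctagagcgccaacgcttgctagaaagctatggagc
The half-site lies at -88 from the Greb1 start on the opposite strand and at -77 from the Nrip1 start, and the window of Pgr holds none. Over the 8 annotated starts of the 5 members, 4 windows held a half-site on either strand, against 35.2% of all 32851 upstream windows of this length. The full element GGTCANNNTGACC, which reads the same on both strands and contains the half-sites, was in 0 of the 8 windows and in 0.0639% of all windows. A match describes letters in this window and is not a measured binding site.

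Lactotrope-like nuclei were compared first between the labelled ages, since prolactin cells are the main estrogen-responsive cells of the gland. Greb1, Pgr and Nrip1 rose in the libraries labelled 22-month, and Esr1, the receptor gene itself, did not pass the test. Folds and p-values come from edgeR's quasi-likelihood test on class sums with labelled sex as a term, with Benjamini-Hochberg adjustment over all genes tested in the class (edgeR adjusted p, called under 0.05). The term follows the labels, against the sex-chromosome transcripts of the libraries labelled 22-month males and 5-month females. Without it, 9 of the 18 calls by labelled age over all classes remained, among them the 3 of this class. The log2 fold was 1.53 ± 0.11 (SE) for Greb1 (edgeR adjusted p 0.000362), 2.27 ± 0.18 for Pgr (0.000434) and 1.41 ± 0.12 for Nrip1 (0.000624). For Esr1 it was 0.25 ± 0.14 (edgeR adjusted p 0.226). In this class 20.7% of all genes tested were called, 11% higher, so the 3 of 4 tested members stand beside a broad difference between these libraries, and Esr2 was filtered as too low. Over 11 alternatives the edgeR or DESeq2 adjusted p ran between 1.69e-17 and 0.0344 for Pgr, between 4.60e-14 and 0.0557 for Greb1 and between 9.10e-12 and 0.0677 for Nrip1. The highest values of Greb1 and Nrip1 came without the library labelled 5-month males, and Nrip1 was also no longer called without that labelled 5-month females (0.0579).

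The lactotrope-like nuclei of the labelled ages fell into different clusters. The cluster led by Alk, Platr21 and Cntnap4 held 2153 and 2473 nuclei of the male and female libraries labelled 5-month and 3 nuclei of each library labelled 22-month, and 4 other clusters held nearly all those labelled 22-month. Among these 4, the cluster led by Reln, Zfp804a and Gm1604a had the highest Greb1, with 449 and 520 CPM in the male and female libraries labelled 22-month. The cluster led by Epha6, Reln and D130009I18Rik had 353 and 315 CPM, that led by Nkain2, Epha6 and Angpt1 243 and 271 CPM, and that led by Alk, Gucy2f and Il1rapl2 215 and 282 CPM. Pgr and Nrip1 were also highest in the cluster led by Reln and Zfp804a, with 161 and 191 CPM of Pgr and 260.1 and 349 CPM of Nrip1, against 72.2 and 79.1 CPM of Pgr and 148 and 174 CPM of Nrip1 in the Nkain2 cluster. Esr1 was 997 and 1123 CPM in the Reln and Zfp804a cluster, 936 and 1122 CPM in the Epha6 and Reln cluster, 877 and 902 CPM in the Nkain2 cluster and 741 and 952 CPM in the Alk and Gucy2f cluster, a range that held the 914 and 960 CPM of the Alk and Platr21 cluster in the male and female libraries labelled 5-month. These are descriptions, since the clusters were drawn from the same nuclei. Each of the 4 clusters lay above the Alk and Platr21 cluster in Greb1, Pgr and Nrip1 in both libraries.

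**Figure D2:**
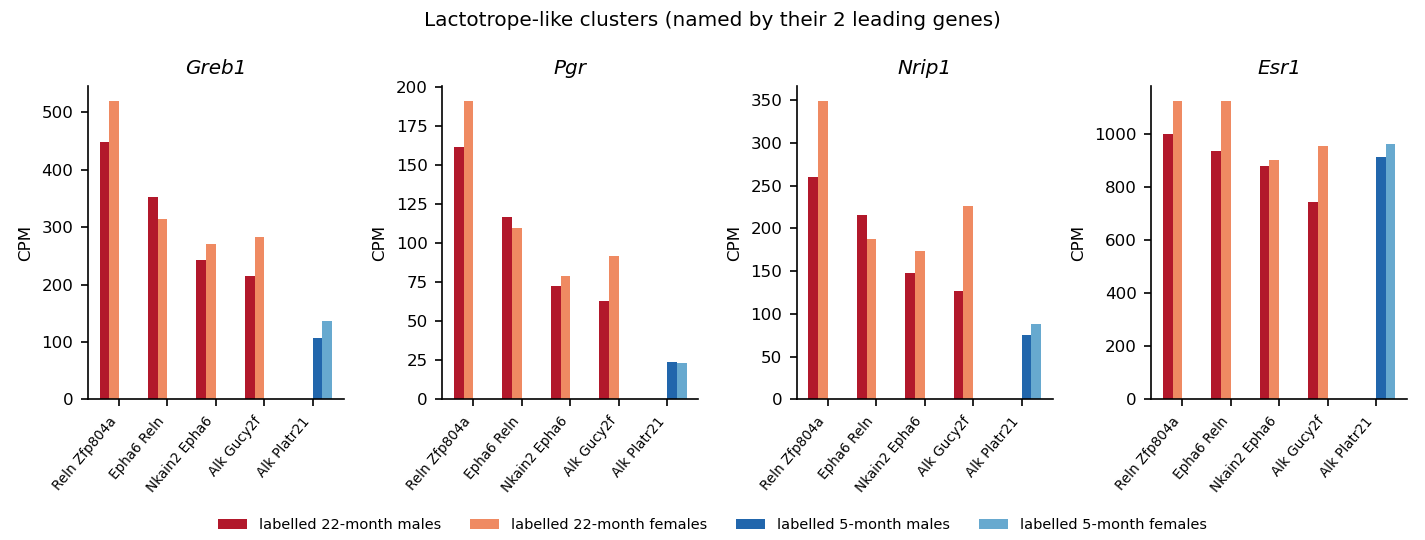
Greb1, Pgr, Nrip1 and Esr1 (CPM, linear axis from 0) in 5 lactotrope-like clusters, each named by its 2 leading genes, 1 bar per library with at least 30 nuclei in the cluster. Greb1 reaches 449 and 520 CPM in the Reln and Zfp804a cluster of the male and female libraries labelled 22-month, and 107 and 136 CPM in the Alk and Platr21 cluster of those labelled 5-month males and females.

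Gonadotrope-like nuclei, which make the gonadotropins Lhb and Fshb, had Greb1, Pgr, Nrip1 and Esr1 called higher in the libraries labelled 22-month. These are 4 of 4 members tested, where 10.5% of all genes tested in the class were called, 6.51% higher. The log2 fold was 3.25 ± 0.25 (SE) for Greb1 (edgeR adjusted p 1.80e-06), 2.53 ± 0.24 for Pgr (1.49e-05), 1.15 ± 0.18 for Nrip1 (0.00108) and 0.73 ± 0.20 for Esr1 (0.0357). Between single libraries Greb1 was 6.31 times higher (95% interval of counting error 4.59 to 8.90) in the library labelled 22-month males than in that labelled 5-month males. Between those labelled females it was 12.5 times higher (8.65 to 18.8). Both pairs therefore went the same way, with a larger ratio between the libraries labelled females. The call of Greb1 held in all 11 alternatives, with a highest adjusted p of 0.0396. Pgr was no longer called without the library labelled 5-month females or 5-month males (0.162 and 0.159), and neither was Nrip1 (0.254 and 0.191), while Esr1 lost its call without any 1 library (0.0965 to 0.555) and in 6 of the 7 other alternatives. Over all alternatives the adjusted p ran between 3.14e-29 and 0.162 for Pgr, whose log2 fold ran between 1.94 and 3.12 with 1 library left out, 1.96e-07 and 0.254 for Nrip1, and 0.000559 and 0.555 for Esr1. The cluster led by Gnrhr, Adcy8 and Foxp2 held 296 and 163 of these nuclei in the male and female libraries labelled 22-month, and the cluster led by Fshb, Gnrhr and Lama1 held 313 and 264 in the male and female libraries labelled 5-month.

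Somatotrope-like nuclei had Greb1 and Nrip1 called higher in the libraries labelled 22-month, 2 of 4 members tested, where 3.03% of all genes tested were called, 2.24% higher. For Greb1 the log2 fold was 2.64 ± 0.25 (edgeR adjusted p 0.00385) and for Nrip1 0.65 ± 0.13 (0.0476). Esr1, at 0.47 ± 0.12 (edgeR adjusted p 0.0850), and Pgr, at 0.91 ± 0.25 (0.103), did not pass. Greb1 was 8.72 times higher (7.75 to 9.83) in the male pair of libraries and 4.10 times higher (3.78 to 4.44) in the female pair. Nuclei of the labelled ages again sorted mostly to different clusters. Within the cluster led by Pappa2, Ghrhr and Gm4146, which had at least 30 nuclei from each library, Greb1 was 159 and 268 CPM in the male and female libraries labelled 22-month, against 10.3 and 45.3 CPM in the male and female libraries labelled 5-month. The value of 268 CPM rests on 30 nuclei and 31 UMIs. The cluster led by Dnah9, Pappa2 and Neb also had at least 30 nuclei from each library. There Greb1 was 225 and 336 CPM against 44.0 and 162 CPM, the last from 33 nuclei and 30 UMIs. The order of the labelled ages was thus the same inside both shared clusters, with a smaller difference between the female libraries in the Dnah9 cluster. The Greb1 call was lost without the library labelled 22-month males (0.112), 22-month females (0.289) or 5-month males (0.218) and with labelled age as the only term, and over all alternatives its adjusted p ran between 3.29e-64 and 0.289, with a log2 fold between 1.87 without the library labelled 5-month males and 3.49 without that labelled 5-month females. The Nrip1 call was lost without any 1 library (0.125 to 0.523) and in 5 of the 7 other alternatives (0.000870 to 0.523 over all).

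Thyrotrope-like nuclei, which make thyrotropin, had 3 of 4 members tested called higher in the libraries labelled 22-month, where 4.94% of all genes tested were called, 2.79% higher. Greb1 had a log2 fold of 4.05 ± 0.28 (edgeR adjusted p 3.73e-12), from 142 and 399 UMIs in the male and female libraries labelled 22-month, against 10 and 8 UMIs in the male and female libraries labelled 5-month. Nrip1 had 0.92 ± 0.20 (edgeR adjusted p 0.00402) and Esr1 0.88 ± 0.20 (0.00422), while Pgr, at 0.68 ± 0.31 (0.264), did not pass. The call of Greb1 was lost in 1 of 11 alternatives, without the library labelled 5-month males (0.0570), and those of Nrip1 and Esr1 without that library (0.595 and 0.605), without that labelled 5-month females (0.414 and 0.492) and without that labelled 22-month females (0.0783 and 0.207). Both were also lost under DESeq2 and with labelled age as the only term, Esr1 also with doublets kept, with adjusted p over all alternatives between 0.000170 and 0.888 for Nrip1 and between 4.76e-05 and 0.605 for Esr1. With doublets kept the log2 fold of Greb1 was 3.17. The summed lactotrope markers other than Prl moved with it, at 0.217 and 0.280 of their lactotrope-like level in the male and female libraries labelled 22-month, against 0.0697 and 0.191 in the male and female libraries labelled 5-month, where Greb1 stood at 0.423 and 0.661 against 0.0890 and 0.0725, and their part in the result was not tested. All thyrotrope-like nuclei came from 1 cluster.

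Stem-like nuclei, which carry Sox2 and Aldh1a2, had Esr1 called higher in the libraries labelled 22-month, 1 of 3 members tested, where 3.19% of all genes tested were called, 1.57% higher. They held 246 and 132 UMIs of Esr1 in the male and female libraries labelled 22-month, against 26 and 30 UMIs in the male and female libraries labelled 5-month, which is 96.1 and 139 CPM against 33.0 and 45.6 CPM. The labelled ages did not overlap, and the log2 fold was 1.52 ± 0.23 (edgeR adjusted p 0.00174). After each nucleus was thinned to 1500 UMIs, Esr1 was counted in 10.8% and 15.3% of stem-like nuclei against 4.90% and 6.70%. Endothelial-like nuclei had 11.4% and 8.55% against 8% and 5.63%, pituicyte-like nuclei 3.03% and 6.52% against 0% and 6.52%, and macrophage-like nuclei 10.1% and 16.9% against 26.8% and 30%. The shares of stem-like nuclei lay within the range of these 3 non-endocrine classes at each labelled age, but the upper end came from macrophage-like nuclei alone. The 15.3% of the library labelled 22-month females was above every share of endothelial-like and pituicyte-like nuclei. Fibroblast-like nuclei, also non-endocrine, had 17.9% and 23.6% against 15.6% and 14.4%. The part of free RNA in the stem-like shares was not tested. The call was lost without the library labelled 5-month males (0.223) and with doublets kept, where the log2 fold was 0.52 (0.273), from a range over the alternatives that starts at 2.03e-08. Nrip1, at -0.08 ± 0.20 (edgeR adjusted p 0.905), and Pgr, at 1.33 ± 0.38 (0.0811), did not pass in this class. Greb1 had 52 and 10 UMIs against 0 and 1 UMIs and was not tested after the filter on low counts.

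Corticotrope-like and melanotrope-like nuclei, which process the product of Pomc, had lower Esr1 and Greb1 than lactotrope-like nuclei in each library. In corticotrope-like nuclei 1.41% of all genes tested were called, 0.982% higher, and Greb1 and Esr1 were called higher, 2 of 4 members tested. Greb1 had 35 and 20 UMIs in the male and female libraries labelled 22-month, against 0 and 1 UMIs in the male and female libraries labelled 5-month (edgeR adjusted p 0.000108). It passed the filter on low counts only through the libraries labelled 22-month, so the filter largely set the direction of this call. With a floor of 3 counts in the library at 0, the male pair of libraries differed by at least 9.40-fold higher Greb1 at labelled 22 months, and in the female pair the ratio was 26.8 with an interval of counting error of 4.29 to 1111. Esr1 had a log2 fold of 1.40 ± 0.32 (edgeR adjusted p 0.0242). Without the library labelled 5-month males both calls were lost (0.909), Esr1 also without that labelled 22-month males (0.106). Under DESeq2 both were lost too, and Esr1 with labelled age as the only term or with doublets kept, so that over the alternatives the adjusted p ran between 9.47e-11 and 0.909 for Greb1 and between 0.000135 and 0.99992 for Esr1. With doublets kept the log2 fold was 2.56 for Greb1 and 0.48 for Esr1, and the bound of 9.40-fold holds only for the class without doublets. The lactotrope markers other than Prl moved with both genes, at 0.0561 and 0.0522 of their lactotrope-like level in the male and female libraries labelled 22-month, against 0.0261 and 0.0205 in the male and female libraries labelled 5-month. Greb1 stood at 0.118 and 0.121 of its lactotrope-like level against 0 and 0.0119, and the part of free RNA was not tested.

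In melanotrope-like nuclei 1.72% of all genes tested were called by labelled age, 1.06% higher and 0.664% lower, and 3 of 5 members tested were called. Greb1 was called higher with a log2 fold of 2.90 ± 0.39 (edgeR adjusted p 0.000737), Nrip1 higher with 0.73 ± 0.17 (0.0382) and Esr2 lower with -2.09 ± 0.44 (0.0204). Greb1 passed the filter on low counts only through the libraries labelled 22-month, and Esr2 only through those labelled 5-month. The filter thus largely set the direction of both calls. This was the only class in which Esr2 passed it. Its call was lost without the library labelled 5-month males, where the log2 fold was -0.89 (0.987), and without that labelled 22-month females (0.302), with labelled age as the only term and with doublets kept (0.000170 to 0.987 over the alternatives). Greb1 was not called without the library labelled 5-month males or 5-month females (0.113 and 0.102) and with labelled age as the only term (0.142), and its log2 fold was 2.22 without that labelled 22-month females and 1.97 with doublets kept. Its thinned shares of nuclei in this class, like those in corticotrope-like nuclei, were near those of macrophage-like nuclei, and the part of free RNA in the call was not tested. Nrip1 lost its call without any library but that labelled 22-month males, under DESeq2, with labelled age as the only term and with doublets kept (0.00124 to 0.860 over the alternatives). Of the melanotrope-like nuclei of the library labelled 5-month males, 282 were in a cluster led by Oacyl, Nrg3 and Fos that drew 96.9% of its nuclei from that library. Esr2 was 23.8 CPM there and 19.6 CPM in the 89 other melanotrope-like nuclei of the same library.

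No member passed by labelled age in pituicyte-like, endothelial-like, fibroblast-like or macrophage-like nuclei, where 0.803%, 0.428%, 0.739% and 0.161% of all genes tested were called. Of these 10 combinations, 1 had an unadjusted p under 0.05 in edgeR, Esr1 of pituicyte-like nuclei, and DESeq2 called 0. In pituicyte-like nuclei Greb1 had a log2 fold of 0.09 ± 0.28 (edgeR adjusted p 0.938), and Esr1 had 20 and 24 UMIs in the male and female libraries labelled 22-month, against 0 and 7 UMIs in the male and female libraries labelled 5-month. Over all 11 classes and 5 members, 38 combinations could be tested by labelled age, of which 17 were called higher at labelled 22 months and 1 lower. Greb1 was called in 6 of 8 classes tested, Nrip1 in 5 of 11, Esr1 in 4 of 11 and Pgr in 2 of 7. Among these, Greb1 of corticotrope-like and melanotrope-like nuclei passed the filter on low counts only through the libraries labelled 22-month. Esr2 of melanotrope-like nuclei, called lower, passed it only through those labelled 5-month. The filter thus largely set the direction of these calls, and they add no support to the counts. Leaving out the library labelled 5-month males ended 16 of the 18 calls, and Pgr of lactotrope-like and Greb1 of gonadotrope-like nuclei kept theirs without any 1 library.

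**Figure D3:**
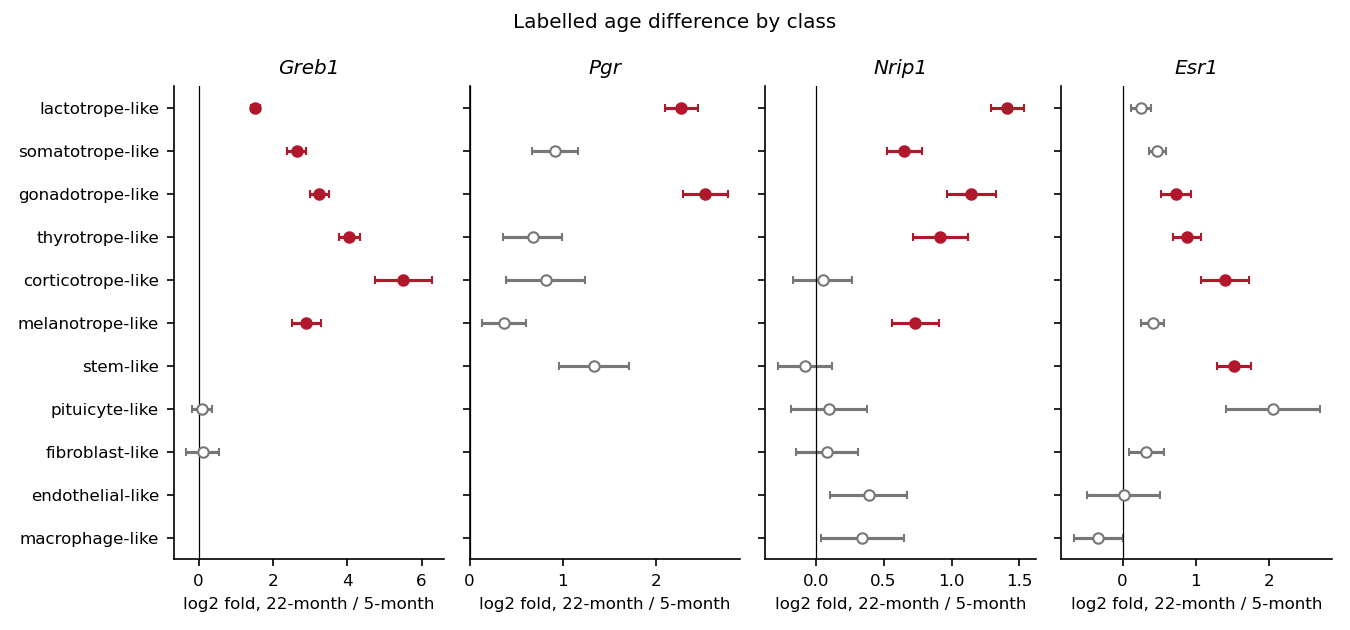
Log2 fold of the libraries labelled 22-month over those labelled 5-month by class for Greb1, Pgr, Nrip1 and Esr1, with 1 SE as bars and a separate linear scale for each gene. Filled red points passed the edgeR adjusted p, open grey points did not, and classes with no point were under the filter on low counts. The Greb1 values run between 0.09 in pituicyte-like and 5.51 in corticotrope-like nuclei. The corticotrope-like value depends on the prior count of the fit because 1 library was at 0, and it is 2.56 with doublets kept.

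Whether classes differed from each other in the labelled age difference was tested directly for 3 pairs of classes. Pgr differed more between labelled ages in lactotrope-like than in somatotrope-like nuclei, by 1.34 ± 0.17 on the log2 scale (edgeR adjusted p 0.00482), and so did Nrip1, by 0.74 ± 0.14 (0.0264). For this pair 5.79% of all genes were called, 2.7% in this direction. Greb1, at -1.10 ± 0.34 (edgeR adjusted p 0.125), did not pass. Greb1 differed more in gonadotrope-like than in lactotrope-like nuclei, by 1.74 ± 0.28 (edgeR adjusted p 0.0240, 2.55% of all genes called, 1.81% in this direction), while Pgr, at 0.26 ± 0.24 (0.690), did not pass. Against stem-like nuclei, where 4.36% of all genes were called, 1.98% upward and 2.38% downward, lactotrope-like nuclei differed more in Nrip1, by 1.43 ± 0.31 (edgeR adjusted p 0.0112), and less in Esr1, by -1.29 ± 0.26 (0.00696). The Pgr difference held in every alternative run, with adjusted p between 3.84e-05 and 0.0114. Without the library labelled 5-month males, Nrip1 was not called against somatotrope-like (0.107) or stem-like nuclei (0.418), nor Esr1 against stem-like nuclei (0.123). Without that labelled 5-month females, Greb1 (0.140) and Esr1 (0.0726) were not called, and with doublets kept Esr1, at -0.22, was not called (0.687). Over the alternatives the lowest adjusted p was 0.00175 and 4.96e-08 for Nrip1 against somatotrope-like and stem-like nuclei, 4.24e-08 for Greb1 and 0.000295 for Esr1.

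The share of nuclei with a UMI was compared at 1 fixed depth. After thinning to 1500 UMIs, Greb1 was counted in 31.0% (95% Clopper-Pearson interval 29.7 to 32.3) and 40.5% (38.9 to 42.1) of lactotrope-like nuclei in the male and female libraries labelled 22-month. In the male and female libraries labelled 5-month it was counted in 14.7% (13.2 to 16.3) and 17.6% (16.1 to 19.2). In gonadotrope-like nuclei the shares were 24.7% and 34.7% against 5.81% and 3.04%, and in somatotrope-like nuclei 26.6% and 35.8% against 4.38% and 10.2%. Macrophage-like nuclei had 2.90% and 4.82% against 0% and 2.50%, where the Clopper-Pearson interval of 0 of 41 nuclei reaches 8.60%. The Greb1 shares of corticotrope-like, melanotrope-like and stem-like nuclei, between 0% and 4.60%, were at or below those of macrophage-like nuclei of the same library, except 0.548% against 0% for melanotrope-like nuclei of the library labelled 5-month males. Endothelial-like nuclei had 1.14% (interval up to 6.17%) and 3.42% against 0% and 0%. The same classes all lay above them in the library labelled 22-month males, and in the others only melanotrope-like nuclei did. These shares alone do not set Greb1 of those classes apart from free RNA, also where its summed counts were called. Thinning left out 69 and 41 lactotrope-like nuclei against 53 and 107, and 18 and 16 macrophage-like nuclei against 20 and 16. Without thinning Greb1 was counted in 62.1% and 74.5% of lactotrope-like nuclei against 26.9% and 33.8%, at medians of 4437 and 5042.5 against 3191 and 3390 UMIs, and in 4.60% and 16.2% of macrophage-like nuclei against 3.28% and 8.93%, at medians of 1919 and 2444 against 2070 and 2021 UMIs.

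Pgr was counted in 23.1% and 37.6% of gonadotrope-like nuclei in the male and female libraries labelled 22-month, against 9.03% and 8.37% in the male and female libraries labelled 5-month, after the same thinning. In lactotrope-like nuclei the shares were 9.97% and 14.8% against 3.38% and 3.12%. Macrophage-like nuclei had 0% and 0% against 0% and 2.50%. Esr1 was counted in 88.3% and 88.2% of gonadotrope-like nuclei against 75.8% and 76.8%, and in 65.5% and 73.1% of lactotrope-like nuclei against 69.5% and 70.1%. In lactotrope-like nuclei the labelled ages overlapped for Esr1 and did not overlap for Pgr.

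**Figure D4:**
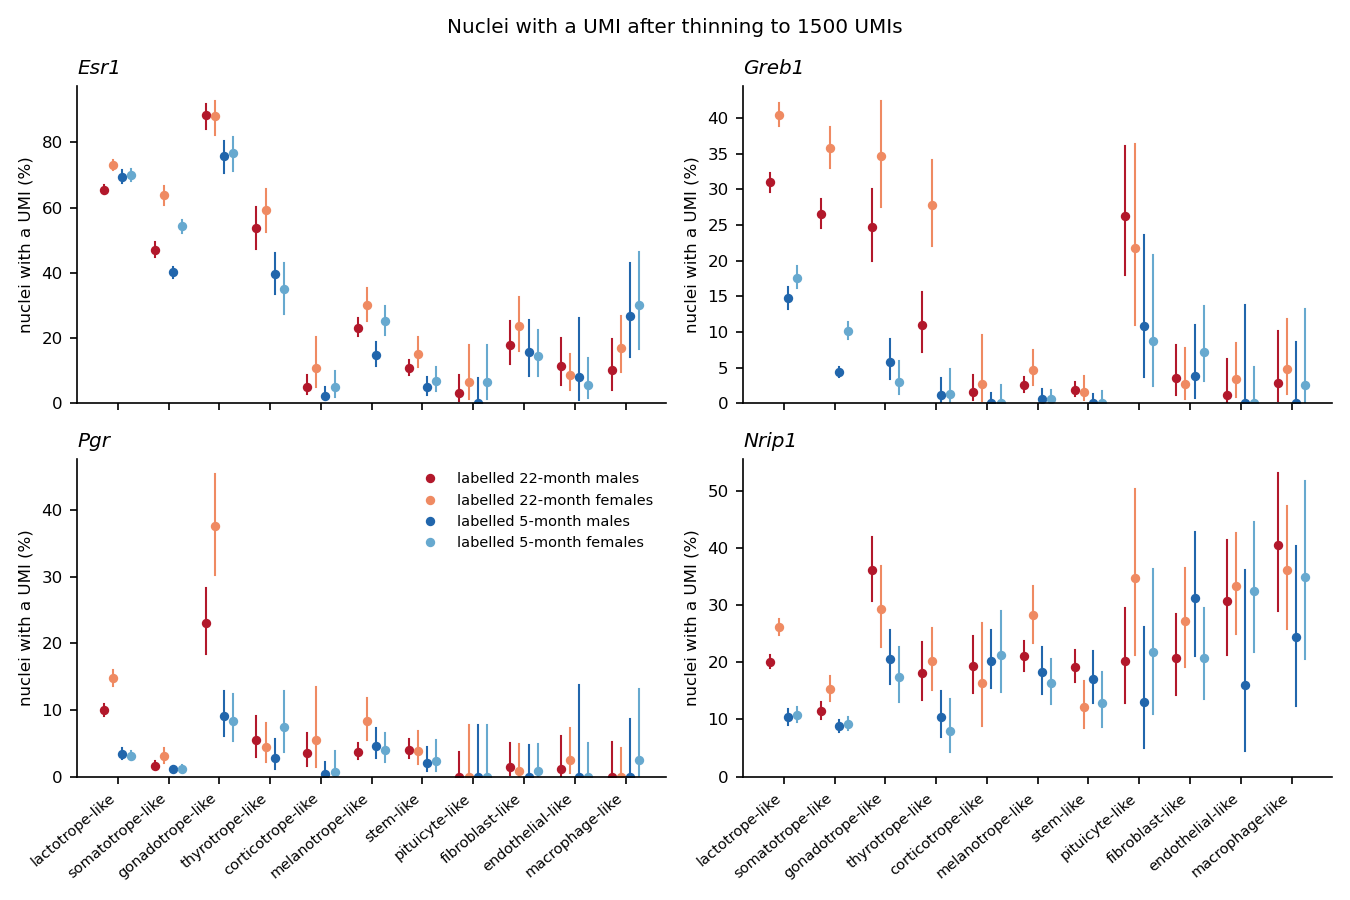
Share of nuclei (percent, linear axis from 0) with at least 1 UMI of Esr1, Greb1, Pgr or Nrip1 after thinning each nucleus to 1500 UMIs, 1 point per class and library with its 95% Clopper-Pearson interval. Greb1 lies at 31.0% and 40.5% of lactotrope-like nuclei in the male and female libraries labelled 22-month, and at 14.7% and 17.6% in the male and female libraries labelled 5-month.

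Prl, the product of lactotropes, was counted in every class, so the 8 other lactotrope markers were set beside the members. In somatotrope-like nuclei their summed level was 0.0405 and 0.0346 of that in lactotrope-like nuclei in the male and female libraries labelled 22-month, against 0.0158 and 0.0450 in the male and female libraries labelled 5-month. Greb1 of somatotrope-like nuclei was 0.858 and 0.936 of the lactotrope-like level against 0.240 and 0.602. In gonadotrope-like nuclei the markers stood at 0.103 and 0.0915 against 0.0115 and 0.0199, and Greb1 at 0.728 and 0.753 against 0.281 and 0.158. In stem-like nuclei the markers stood at 0.132 and 0.140 against 0.0593 and 0.146, and Esr1 at 0.109 and 0.127 against 0.0361 and 0.0476, so that Esr1 lay below the markers there. Of the 8 markers, 8 and 5 were counted in stem-like nuclei against 6 and 6, and the part of free RNA in the Esr1 result was not tested. In melanotrope-like nuclei the markers stood at 0.208 and 0.185 against 0.146 and 0.199, and Greb1 at 0.0615 and 0.0968 against 0.0297 and 0.0267.

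Between the labelled sexes, whose libraries of 1 labelled age carry the same sex-chromosome transcripts, 1 of 38 combinations was called. Esr1 of melanotrope-like nuclei had 181 and 137 CPM in the libraries labelled 22-month males and 5-month males, against 291 and 225 CPM in those labelled 22-month females and 5-month females. The library labelled males was the lower in each labelled age, and the log2 fold of males over females was -0.73 ± 0.16 (edgeR adjusted p 0.0339, 1.15% of all genes called in this class, 0.824% lower). The call was lost without any 1 library (0.427 to 0.99989) and under DESeq2, with labelled sex as the only term, with doublets kept and with plain totals (0.00282 to 0.99989 over the alternatives). DESeq2 called 2 combinations, both in somatotrope-like nuclei. Esr1 of that class was also lower in the libraries labelled males, at 502 and 374 CPM against 828 and 639 CPM in the same order. Gonadotrope-like nuclei alone had Esr1 higher in both libraries labelled males, at 1825 and 1241 CPM against 1686 and 1069 CPM. In edgeR no member passed in the other 10 classes, in 33 combinations, of which 9 had an unadjusted p under 0.05. The share of all genes called there was 0.234% in lactotrope-like, 0.163% in somatotrope-like, 1.81% in gonadotrope-like, 1.23% in thyrotrope-like, 0.297% in stem-like, 0.522% in corticotrope-like, 0.588% in pituicyte-like, 0.367% in endothelial-like, 0.164% in fibroblast-like and 0% in macrophage-like nuclei.

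Other genes of the pathway were taken from lists. In lactotrope-like nuclei, of 30 other estrogen-responsive genes 26 were tested, 4 were called higher in the libraries labelled 22-month and 2 lower, with a median log2 fold of 0.07 against -0.02 over all genes. Over all genes of this class 20.7% were called, 11% higher, so the count of the list was near that of all genes. Rerg, an estrogen-regulated small GTPase gene, had 43.4 and 78.5 CPM in the male and female libraries labelled 22-month, against 4.08 and 3.19 CPM in the male and female libraries labelled 5-month (log2 fold 4.23 ± 0.27, edgeR adjusted p 0.000183). Gal, which encodes the peptide galanin, had 77.2 and 86.8 CPM against 1.77 and 7.71 CPM (4.33 ± 0.35, edgeR adjusted p 0.000525). Myc, a growth regulator, rose by 3.00 ± 0.31 (edgeR adjusted p 0.00130), and these 3 calls held without any 1 library. Sgk1, a kinase gene also induced by corticosteroids, was lower by -2.62 ± 0.22 (edgeR adjusted p 0.000535), but its call ended without the library labelled 22-month males, 5-month males or 5-month females (up to 0.201). In gonadotrope-like nuclei, where 10.5% of all genes were called, 2 of 16 tested genes were called, Gal and Prl. In somatotrope-like nuclei, where 3.03% were, it was 2 of 23, the same 2 names, both of which are also lactotrope products.

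Cofactors of the receptors were read in lactotrope-like nuclei. Of 19 listed coactivators and pioneer factors, 15 were tested and 5 called higher, with a median log2 fold of 0.26, against 11% of all genes called higher and a median of -0.02. Among the 5 were Cited2 (1.30 ± 0.25, edgeR adjusted p 0.0124) and Crebbp (0.62 ± 0.12, edgeR adjusted p 0.0129). Both lost their calls without the library labelled 22-month females, 5-month males or 5-month females. Ppargc1b, a coactivator of nuclear receptors, had 15.2 and 16.2 CPM in the male and female libraries labelled 22-month, against 5.17 and 6.05 CPM in the male and female libraries labelled 5-month (1.67 ± 0.21, edgeR adjusted p 0.00315, held without any 1 library). Of 11 listed corepressors 9 were tested and 1 was called, against 20.7% of all genes. It was Nr0b2, lower by -3.57 ± 0.76 (edgeR adjusted p 0.0193). Its call was lost without the library labelled 22-month males, 22-month females or 5-month males (up to 0.167), and without that labelled 5-month females it was under the filter. Nr3c1, the glucocorticoid receptor gene, was lower by -0.89 ± 0.21 (edgeR adjusted p 0.0279) but lost its call without any 1 library. Esrrg, an orphan relative of the estrogen receptors, was higher in stem-like nuclei, with 186 and 279 CPM against 52.0 and 48.7 CPM (2.11 ± 0.23, edgeR adjusted p 0.000140). That call held without any 1 library and was lost with doublets kept (0.0945).

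Over the 44 sums of class and library, the genes most alike in pattern to each member were found by Pearson correlation of log2(CPM + 1) among 13301 genes, as a description, with points that share libraries. They were Lhfpl3 (0.87), Slc7a14 (0.84) and Prune2 (0.83) for Esr1. For Greb1 they were Prr16 (0.83), Them7 (0.79) and Myo16 (0.78), for Pgr Rundc1 (0.84), Pak3 (0.83) and Ppip5k1 (0.82), and for Nrip1 Soga1 (0.84), Atp1b3 (0.77) and Rab31 (0.74). Between the members, Esr1 and Pgr had 0.63, Esr1 and Greb1 0.45, Greb1 and Pgr 0.31 and Greb1 and Nrip1 0.05.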

How the data were processed

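Pituitary nuclei of 4 pools, each of 3 glands, were measured by single-nucleus RNA sequencing on the 10x 3′ platform. The deposited values are raw counts of UMIs per gene and barcode, made with Cell Ranger 7.0.1 per the file headers on the mm10 build per the submitters' processing notes. The setting for reads in introns is not stated in the labels or headers. The total per library was between 33328821 and 65773807 UMIs, so rare genes such as Esr2 rest on few counts. Nuclei with at least 500 genes and at most 5% mitochondrial UMIs were kept, and doublets were removed with 1 Scrublet score threshold, 0.135, set after the scores were seen. Counts were clustered with scanpy 1.11.5 (3000 variable genes, 30 components, 15 neighbours, Leiden resolution 1, 26 clusters), and clusters were named from marker genes by score limits set after the clusters were seen.

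Counts were summed per class and library and tested with edgeR 4.0.16 in R 4.3.3 (quasi-likelihood, TMM, filterByExpr, Benjamini-Hochberg over all genes of a class), which leaves 1 residual degree of freedom, or 2 for differences between classes. The spread shared across genes therefore carries the tests, with prior degrees of freedom between 5.49 and 29.7. An SE is the absolute log2 fold divided by the square root of F. Alternatives were RLE factors, no filter, DESeq2 1.42.0, 1 factor alone, doublets kept, Leiden resolution 2, plain totals without hormone genes, and leaving out each library. The marker ratios were added after seeing the data. Poisson, binomial and Clopper-Pearson intervals (95%) and floors of 3 counts cover counting error only.

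All members were named, and of each list the called genes with the 3 smallest adjusted p per direction in lactotrope-like, somatotrope-like, gonadotrope-like and stem-like nuclei. The members and lists were chosen with earlier results of these data known. Scripts were tested on simulated data. A result of one listed gene is not reported here.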

Additional observations from a re-analysis of the deposited data

Results flagged for a closer look

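Some labelled age differences were unequal between classes by a direct test of the difference. On the log2 scale, lactotrope-like nuclei exceeded somatotrope-like nuclei by 1.34 for Pgr and by 0.74 for Nrip1. Against stem-like nuclei, the lactotrope-like difference was larger by 1.43 for Nrip1 and stood at -1.29 for Esr1. Gonadotrope-like nuclei exceeded lactotrope-like nuclei by 1.74 for Greb1.

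Esr1 of lactotrope-like nuclei had CPM ratios on opposite sides of 1 in the 2 labelled sexes. The ratio of the library labelled 22-month to that labelled 5-month was 0.964 between the libraries labelled males (95% interval of counting error 0.938 to 0.991) and 1.14 between those labelled females (1.11 to 1.17). With 1 library per label, the difference between these ratios was not tested. Each ratio is of CPM, whose total includes Prl. The 9 lactotrope markers, Prl among them, summed to 92133 and 59358 CPM in the male and female libraries labelled 22-month. In the male and female libraries labelled 5-month the sums were 41923 and 21088 CPM. The part of Prl in the direction of the Esr1 ratios was not tested.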

How the results depend on the processing

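Of 38 tested combinations of member and class, 18 were called by labelled age. The count was 10 under DESeq2, 9 with labelled age as the only term, and 2 to 16 when 1 library was left out. With doublets kept it was 20, but 11 of the original 18 were among them. By labelled sex the count was 1, against 6 with no filter on low counts, 2 under DESeq2, 0 with 1 factor alone, with doublets kept or with plain totals, and 0 to 3 with 1 library left out. For differences between classes it was 5, against 2 to 6 with 1 library left out. By labelled age and labelled sex, fits with 1 library left out used 1 factor alone. For differences between classes they kept library and class as terms.

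Values that changed sign were all uncalled, and the cause was not tested. With 1 library left out, the log2 fold by labelled age ran for Esr1 between -0.28 and 0.49 in endothelial-like, -0.11 and 0.92 in fibroblast-like and -0.91 and 0.15 in macrophage-like nuclei. For Greb1 it ran between -0.41 and 1.02 in fibroblast-like and -0.18 and 0.46 in pituicyte-like nuclei. For Nrip1 it ran between -0.065 and 0.16 in corticotrope-like, -0.073 and 0.25 in fibroblast-like, -0.34 and 0.63 in pituicyte-like and -0.39 and 0.36 in stem-like nuclei. For Pgr of melanotrope-like nuclei it ran between -0.25 and 0.93, and for the Esr1 difference of lactotrope-like over somatotrope-like nuclei between -0.56 and 0.073. With doublets kept, Esr1 was 0.40 in macrophage-like and -0.12 in pituicyte-like nuclei and Nrip1 0.31 in stem-like nuclei, where plain totals gave 0.0067.

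Over all genes, the number called by labelled age moved by more than 1.5 times in each class. In lactotrope-like nuclei it was 3449, against 475 to 4830 over the alternatives, in gonadotrope-like nuclei 1255 against 75 to 1793, in somatotrope-like nuclei 465 against 18 to 1844, and in thyrotrope-like nuclei 533 against 18 to 969. It was 323 against 38 to 674 in stem-like, 135 against 0 to 426 in corticotrope-like and 215 against 13 to 469 in melanotrope-like nuclei. Doublets kept moved 22 of 55 levels by more than the spread between libraries. No paired analysis was possible because each labelled group is 1 library.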

Other observations

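Some nuclei with high member levels matched no class by the marker scores. A cluster led by Spon1, Arhgap6 and Adamts19 held 218 and 886 nuclei of the libraries labelled 22-month males and 22-month females. Its Greb1 was 385 and 404 CPM, its Esr1 1035 and 1188 CPM and its Pgr 63.9 and 76.7 CPM in these libraries.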
